A study of Homo sapiens with 12 samples.

Results

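The aminoacyl-tRNA synthetases are described here in 4 human cancer cell lines that carry an added SIVA gene. The genes were chosen by name: 20 genes of cytosolic synthetases, 16 of mitochondrial synthetases and 3 of the scaffold subunits that hold several cytosolic synthetases together, which makes 39 of the 57187 genes in the count table. All 39 were found under their older symbols (*AARS* for *AARS1*, and so on) and all 39 were among the 17211 genes that passed the filter on low counts. The lines were a breast pair, MDA-MB-231 and HCC1954, and an ovarian pair, OVCAR8 and SKOV3, and their mRNA was sequenced in 3 conditions with 1 library each, 12 libraries in all. The control libraries (EV) are labelled parental and untreated and are also called empty vector cells by the study, *SIVA-WT* libraries come from cells transfected with the normal SIVA coding sequence, and *SIVA-D160N* libraries from cells transfected with a version that carries the D160N change. The transfected cells were selected with hygromycin and their vectors used a CMV promoter. If the EV cells are untreated, as labelled, both comparisons with EV also take in transfection, vector and selection, which cannot be told apart from the added protein. Each condition therefore rests on 4 lines, and a difference within 1 line has no replicate check.

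An aminoacyl-tRNA synthetase joins an amino acid to the tRNA that reads its codons, which is the step that puts the genetic code into effect. Nearly every amino acid has a cytosolic enzyme and a separate mitochondrial enzyme, both encoded in the nucleus, and the enzymes fall into class I and class II by the fold of their catalytic domain. In animal cells a set of cytosolic enzymes sits in the multisynthetase complex, held by the scaffold proteins AIMP1, AIMP2 and EEF1E1, while the others work outside it. When amino acids run short, uncharged tRNA activates the kinase GCN2 (EIF2AK4) and the translation of ATF4, a transcription factor that acts on amino acid transport and synthesis genes and on many cytosolic synthetase genes through sites of the form TGATGNAA.

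The promoters of the members were searched for these letters because sites of this form are known from synthetase genes, and the genes that hold them here include 4 of the 6 cytosolic genes that were lower in *SIVA-D160N* than in EV. The search covered 300 bases for each RefSeq transcription start (250 before it and 50 after it, GRCh38.p14), on both strands (TGATGNAA or TTNCATCA), and no other motif was searched. A window was at hand for 33 of the 39 members, and not for *DARS*, *LARS*, *VARS*, *YARS*, *AARS2* and *VARS2*. The letters were found in 8 of the 33, namely 7 cytosolic genes and *YARS2*, and in 3.62% of all 35116 windows (4.46% of gene symbols, which can have several windows). The stretches below run 5′ to 3′ on the strand of the gene, 30 bases each, with the matched letters in capitals.
AARS: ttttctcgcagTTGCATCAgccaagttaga
CARS: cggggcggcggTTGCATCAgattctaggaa
GARS: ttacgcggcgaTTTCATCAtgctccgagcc
IARS: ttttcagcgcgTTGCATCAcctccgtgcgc
MARS: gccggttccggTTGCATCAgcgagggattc
NARS: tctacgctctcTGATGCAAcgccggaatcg
TARS: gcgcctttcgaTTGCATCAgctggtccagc
YARS2: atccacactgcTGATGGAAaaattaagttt
In 6 of these promoters the match lay near a start of transcription. Its first base was 2 bases before the start in *CARS* (minus strand, chr11:3057407-3057436), 4 before in *MARS* (plus strand, chr12:57488053-57488082), 13 before in *IARS* (minus strand, chr9:92293692-92293721), 33 before in *GARS* (plus strand, chr7:30594834-30594863, from 1 of its starts), at base 3 of the transcript in *TARS* (plus strand, chr5:33440956-33440985, likewise from 1 of its starts and not the first of them) and at base 15 in *NARS* (minus strand, chr18:57621804-57621833). In *AARS* it lay 187 bases before the start (minus strand, chr16:70289675-70289704) and in *YARS2* 197 bases before (minus strand, chr12:32756076-32756105). A match describes the letters of the reference genome, and binding of a factor was not measured.

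The libraries held 35791455 to 45890398 counts, and every member had at least 54 counts in each library. *SIVA1*, the gene on the vectors, had EV levels of 28.1 CPM (counts scaled to library size with TMM normalization) for MDA-MB-231, 66.3 for OVCAR8 and 52.6 for SKOV3, and was higher in *SIVA-WT* (80.7, 177 and 106 CPM) and *SIVA-D160N* (68.2, 161 and 112 CPM). In HCC1954 it had 0 counts in EV, which at 3 counts as the limit allows up to 0.0712 CPM by counting error, while the *SIVA-WT* library held 38.2 CPM and the *SIVA-D160N* library 26.5 CPM. The other EV libraries held 1272 to 2419 counts of the gene, so the label of this library is uncertain. The study also lists HCC1954 cells with a SIVA knockout, a word it uses for MDA-MB-231 cells with an shRNA knockdown as well. The reason for the 0 was not tested. The library is called EV after its label, and the main counts are also given without HCC1954. Levels of *ERBB2*, which is amplified in HCC1954 and SKOV3, were at 5736 to 12170 CPM in these lines and at 32.1 to 78.1 CPM in the others, and *PAX8*, an ovarian and kidney marker, was at 61.1 to 243 CPM in the ovarian lines and at most 3.43 CPM in the breast lines. A list of 9 blood, endothelial and fibroblast markers summed to 1.27 to 92.2 CPM per library (highest in HCC1954), with 2 to 5 of the 9 at 0, and of its 4 tested genes *VWF* and *PECAM1* were lower in *SIVA-D160N* than in EV at an unadjusted p-value under 0.05 (FDR of 0.209 and 0.241). Markers of the lines themselves also moved with condition. *ERBB2* was at 9223, 7697 and 5736 CPM in EV, *SIVA-WT* and *SIVA-D160N* of HCC1954 and at 12170, 8860 and 5964 CPM in SKOV3. Fitted over the lines in *SIVA-D160N* vs EV it was at -0.44 ± 0.16 SE (FDR = 0.265), its neighbour *GRB7* at -0.68 ± 0.23 SE (FDR = 0.237) and the keratin *KRT19* at -0.77 ± 0.17 SE (FDR = 0.148), which was the only one of 5 epithelial markers lower at an unadjusted p-value under 0.05. *VIM*, a mesenchymal marker, was at 95.6, 161 and 290 CPM in HCC1954, and at 0.29 ± 0.25 SE (FDR = 0.627) over the lines. The part of these markers in the results was not tested.

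Members differed widely in abundance. Divided by the length of a reference transcript, *SARS* (seryl-tRNA synthetase) was highest, at 229 CPM per kb on average over the 12 libraries, followed by *TARS* (threonyl-) at 136 and *GARS* (glycyl-tRNA synthetase, which also serves mitochondria) at 133 CPM per kb. *SARS2*, *PARS2* and *MARS2*, the mitochondrial enzymes for serine, proline and methionine, were lowest at 1.68, 4.9 and 5.14 CPM per kb, and the highest member stood 136-fold above the lowest. The cytosolic and mitochondrial sets were nearly separate on this scale. All cytosolic genes but *FARSB* (14.6 CPM per kb, with a reference transcript of 6.76 kb) lay at 43.5 CPM per kb or above, and all mitochondrial genes but *IARS2* (52.2 CPM per kb) lay at 27.3 or below. *FARSB* encodes the beta subunit of phenylalanyl-tRNA synthetase and *FARSA*, at 51.3 CPM per kb, its alpha subunit. *SARS2* shares 48.2% of its transcript with another gene on the same strand, *VARS2* 63% and *EEF1E1* 18.8% (with the readthrough gene *EEF1E1-BLOC1S5*), so that their counts are uncertain. *AIMP2* overlaps *EIF2AK1* on the opposite strand over 29.1% of its transcript and *YARS2* another gene over 18.1%, and the strand setting of the counts is not given in the sources used here.

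**Figure D1:**
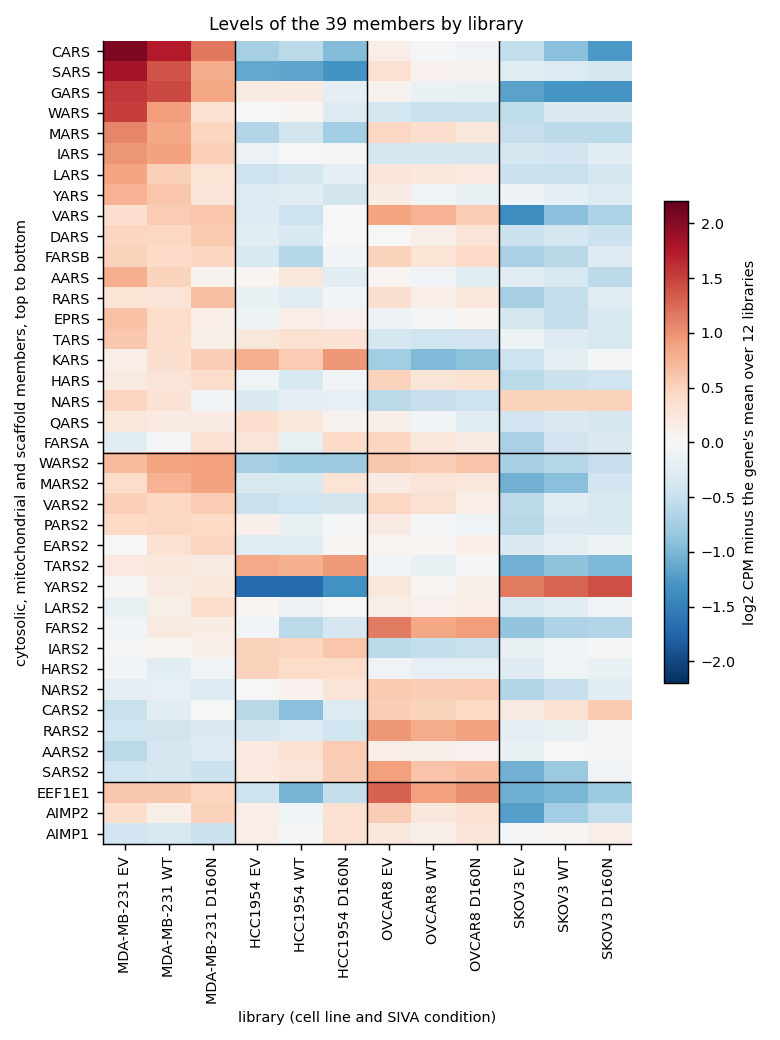
Heat map of log2 CPM of the 39 members (rows) in the 12 libraries (columns), each row centred on its mean over the libraries; black lines separate cell lines and the cytosolic, mitochondrial and scaffold groups. The 3 libraries of a line resemble each other, and most cytosolic rows are highest in MDA-MB-231.

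The cell line was the main difference among libraries for this gene family. All 39 members differed between lines at an FDR (Benjamini-Hochberg adjusted p-value over all genes tested) under 0.05, from 9.25e-09 to 0.0459 (*LARS2*), but so did 93.9% of all genes tested. The 3 libraries of a line, which differ in condition, served as its replicates in this test. Its p-values therefore measure the spread between those libraries and not between separate cultures of a line. MDA-MB-231 had the highest mean of the 4 lines for 14 of 20 cytosolic genes, and SKOV3 the lowest for 12 of 20 cytosolic and 9 of 16 mitochondrial genes. The share of all genes with their highest or lowest mean in these lines was not counted. In 13 of 39 members all 3 MDA-MB-231 libraries lay above all 9 others (12.8% of all genes did so), and 9 of these 13 were cytosolic: *CARS*, *DARS*, *GARS*, *IARS*, *LARS*, *MARS*, *SARS*, *WARS* and *YARS*. The same held for 5 members in HCC1954 (background 16%): *KARS*, *AARS2*, *HARS2*, *IARS2* and *TARS2*. It held for 5 in OVCAR8 (background 14.3%): *FARS2*, *NARS2*, *RARS2*, *SARS2* and *EEF1E1*. In SKOV3 it held only for *NARS*, the asparaginyl enzyme, and *YARS2* (background 15.5%).

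The widest range between line means belonged to *YARS2*, the mitochondrial tyrosyl-tRNA synthetase, at 7.2-fold. *YARS2* was at 84.3, 91.9 and 101 CPM in EV, *SIVA-WT* and *SIVA-D160N* of SKOV3 and at 11.7, 11.8 and 15 CPM in HCC1954. OVCAR8 (39.8 to 45 CPM) and MDA-MB-231 (38.5 to 44.8 CPM) lay between them and overlapped. *CARS* (cysteinyl-), *GARS* and *SARS* followed with ranges of 5.87-, 5.85- and 5.84-fold, each with MDA-MB-231 on top. *EEF1E1* spanned 4.07-fold, from 6.22 to 7.49 CPM in SKOV3 and 6.5 to 9.6 CPM in HCC1954 to 24.5 to 32.2 CPM in OVCAR8, and *TARS2* spanned 3.55-fold, from 24 to 26.9 CPM in SKOV3 to 85.8 to 95.7 CPM in HCC1954. *LARS2* was the most even member, with line means within 1.26-fold. *HARS* and *HARS2*, the cytosolic and mitochondrial histidyl enzymes, start 85 bases apart on opposite strands of chromosome 5. The mean of *HARS* was highest in OVCAR8, but its libraries there (120 to 142 CPM) overlapped those of MDA-MB-231 (115 to 131 CPM). *HARS2* was highest in HCC1954.

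The comparison of *SIVA-D160N* with EV asks what expression of the altered protein changes across the lines, with the transfection and selection included. No member passed an FDR under 0.05, as was true of nearly all genes (1 gene in all, 0.00581%), in edgeR's quasi-likelihood test. With DESeq2 *AARS* and *CARS* passed, of 340 genes, and with limma-voom no member passed, of 67 genes. At an unadjusted p-value under 0.05, 6 of 39 members were lower in *SIVA-D160N* (background 7.68%) and 2 were higher (background 6.52%). All 6 lower members were cytosolic, 6 of 20. Of all 39 members, 6 were lower in each of the 4 lines (background 8.34%), and these were the same 6. Having been picked by a p-value over these lines, their agreement between lines is no separate support. The 6 were *AARS*, *CARS*, *GARS*, *SARS*, *YARS* and *MARS*. Both higher members were mitochondrial, *MARS2* and *EARS2*. With *IARS2* they were the 3 members that were higher in all 4 lines (background 6.85%). Both counts of higher members, 2 and 3 of 39, are near the shares of all genes tested. The median log2 fold change was -0.06 over the cytosolic genes, with 13 of 20 below 0. It was 0.14 over the mitochondrial genes, with 13 of 16 above 0. Over all 17211 genes tested it was -0.01, with 8900 below 0 and 8311 above. Without SKOV3 the mitochondrial median was 0.06. Without HCC1954, 7 members were lower at that p-value, the 6 and *TARS* (background 5.73%), and 3 were higher, *EARS2*, *LARS2* and *MARS2* (background 3.93%). Without MDA-MB-231 the cytosolic median was 0.03, and 3 members were lower at that p-value (*AARS*, *CARS* and *GARS*, background 5.76%) and 1 higher (*MARS2*, background 5.51%). Without OVCAR8, 9 members were higher (background 6.69%): *AARS2*, *CARS2*, *EARS2*, *FARSA*, *KARS*, *MARS2*, *RARS*, *VARS* and *YARS2*. The marker genes *ERBB2*, *GRB7* and *KRT19* were lower in the same comparison at an unadjusted p-value under 0.05, as given above. In bulk RNA, fewer cells with a transcript and less of it per cell cannot be told apart, and the p-values measure only the spread between these lines.

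**Figure D2:**
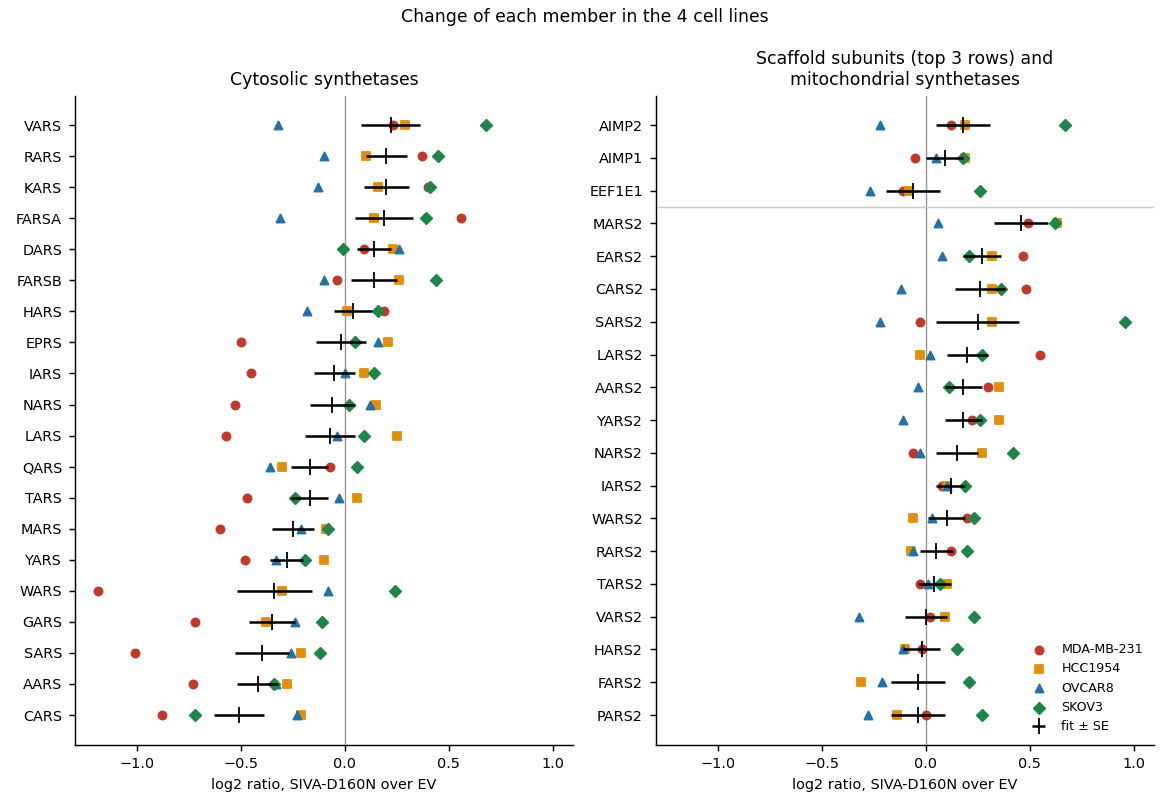
Log2 ratio of *SIVA-D160N* over EV for each member in the 4 lines (coloured symbols) and the fitted log2 fold change with its SE (black bar), for cytosolic synthetases on the left and for scaffold subunits and mitochondrial synthetases on the right. The lowest cytosolic rows lie left of 0 in every line, with MDA-MB-231 farthest from 0 in most of them.

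*AARS*, the alanyl-tRNA synthetase, was at 634 CPM in EV, 511 in *SIVA-WT* and 383 in *SIVA-D160N* of MDA-MB-231, at 376, 433 and 310 CPM in HCC1954, at 380, 351 and 303 CPM in OVCAR8, and at 311, 286 and 246 CPM in SKOV3. In all 4 lines *SIVA-D160N* was the lowest of the 3 libraries, and in HCC1954 *SIVA-WT* lay above EV. Fitted over the lines, *AARS* was at 0.747 times the EV level (log2 fold change -0.42 ± 0.10 SE, FDR = 0.154). *CARS*, the cysteinyl-tRNA synthetase, was at 443, 359 and 240 CPM in MDA-MB-231, at 64.2, 70.9 and 55.4 CPM in HCC1954, at 119, 104 and 101 CPM in OVCAR8, and at 73.9, 56.6 and 44.8 CPM in SKOV3, in the same order of conditions. *SIVA-D160N* was again the lowest in every line, most so in MDA-MB-231 and SKOV3, at 0.543 and 0.607 times EV. The fitted *CARS* level was 0.701 times that in EV (log2 fold change -0.51 ± 0.12 SE, FDR = 0.154).

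*GARS* was at 779, 718 and 475 CPM in EV, *SIVA-WT* and *SIVA-D160N* of MDA-MB-231, at 299, 297 and 230 CPM in HCC1954, at 278, 237 and 236 CPM in OVCAR8, and at 116, 107 and 107 CPM in SKOV3. In both breast lines *SIVA-D160N* stood below the other 2 libraries, which were close to each other, and in both ovarian lines *SIVA-D160N* and *SIVA-WT* were nearly equal. Its fitted log2 fold change was -0.35 ± 0.11 SE (FDR = 0.221). *SARS* was at 1243, 913 and 617 CPM in MDA-MB-231, at 161, 156 and 140 CPM in HCC1954, at 443, 372 and 370 CPM in OVCAR8, and at 291, 284 and 268 CPM in SKOV3. The *SARS* level in *SIVA-D160N* was 0.496 times EV in MDA-MB-231 and between 0.836 and 0.922 times EV in the other lines, with a fitted log2 fold change of -0.40 ± 0.13 SE (FDR = 0.235) that was -0.19 without MDA-MB-231. *SARS*, the member of highest level per length, held no match to the searched letters in its windows.

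*YARS*, the tyrosyl-tRNA synthetase, was at 422, 380 and 303 CPM in MDA-MB-231, at 203, 211 and 189 CPM in HCC1954, at 279, 238 and 222 CPM in OVCAR8, and at 232, 214 and 203 CPM in SKOV3. *MARS*, the methionyl-tRNA synthetase, was at 575, 493 and 379 CPM in MDA-MB-231, at 175, 208 and 164 CPM in HCC1954, at 377, 354 and 327 CPM in OVCAR8, and at 192, 184 and 182 CPM in SKOV3. For both genes EV was above *SIVA-WT* and *SIVA-WT* above *SIVA-D160N* in 3 lines, and *SIVA-WT* was the highest in HCC1954. Their fitted log2 fold changes were -0.28 ± 0.08 SE for *YARS* (FDR = 0.215) and -0.25 ± 0.10 SE for *MARS* (FDR = 0.325), the latter at -0.13 without MDA-MB-231. *MARS* was the only enzyme of the multisynthetase complex among the 6 lower genes. Of the complex enzymes (*EPRS*, *IARS*, *LARS*, *MARS*, *QARS*, *RARS*, *KARS* and *DARS*) 1 of 8 was lower, with a median log2 fold change of -0.04, and of the cytosolic enzymes outside it 5 of 12, with a median of -0.22, beside 7.68% of all genes tested. A count of 1 in 8 is close to that background, and the difference between the sets was not tested. By catalytic class the counts were 3 of 10 in class I (*CARS*, *MARS* and *YARS*, median -0.12) and 3 of 10 in class II (*AARS*, *GARS* and *SARS*, median -0.01).

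**Figure D3:**
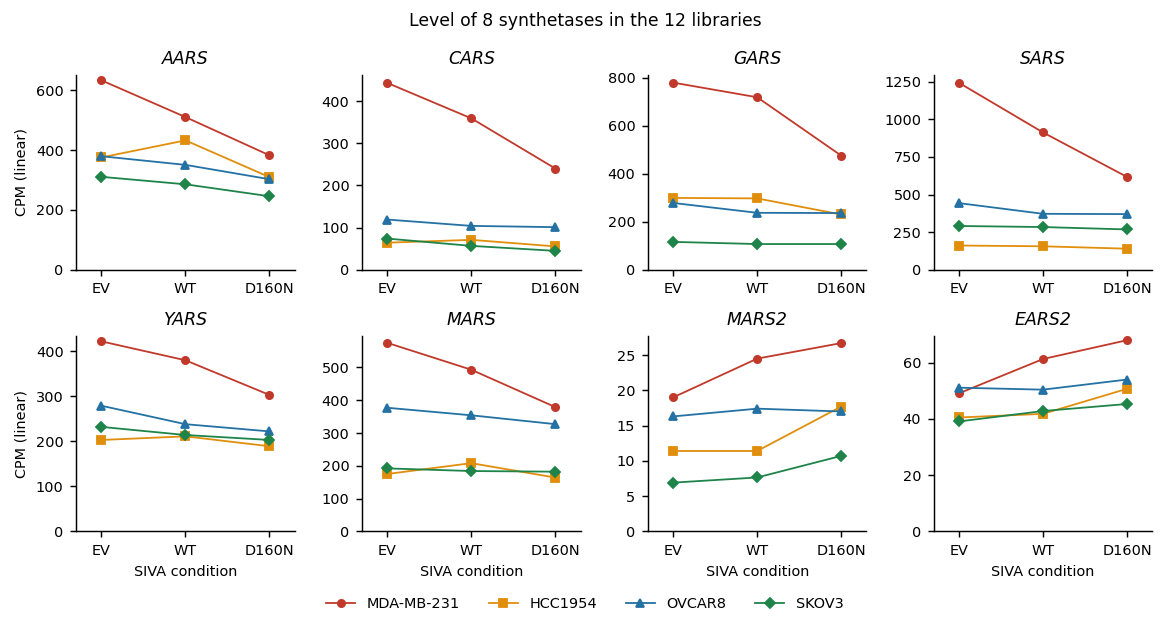
CPM on linear axes from 0 of the 8 members with an unadjusted p-value under 0.05 in *SIVA-D160N* vs EV, 1 point per library, with a line joining the 3 conditions of each cell line. The 6 cytosolic genes end lower in *SIVA-D160N* than in EV in each line, and *MARS2* and *EARS2* end higher.

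The remaining cytosolic genes did not share a direction. *VARS* (valyl-), *KARS* (lysyl-), *RARS* (arginyl-) and *FARSA* had fitted log2 fold changes of 0.22, 0.20, 0.20 and 0.19 and were higher in *SIVA-D160N* in every line but OVCAR8, while *EPRS*, the enzyme for both glutamate and proline, *IARS* (isoleucyl-), *LARS* (leucyl-) and *NARS* had values of -0.02, -0.05, -0.07 and -0.06. The latter 4 were each lower in MDA-MB-231 by a log2 ratio of -0.45 to -0.57. In the other lines their log2 ratios lay between -0.04 and 0.25. *KARS* was at 263, 304 and 347 CPM in EV, *SIVA-WT* and *SIVA-D160N* of MDA-MB-231 and at 173, 205 and 230 CPM in SKOV3, the reverse order of the genes above. *QARS* (glutaminyl-) and *TARS* were at -0.17 each and lower in 3 of 4 lines, and *DARS* (aspartyl-), *FARSB* and *HARS* were at 0.14, 0.14 and 0.04. The scaffold genes *AIMP1*, *AIMP2* and *EEF1E1* had log2 fold changes of 0.09, 0.18 and -0.06. *AIMP2* was higher in SKOV3 (22.8 CPM in EV, 31.1 in *SIVA-WT* and 36.3 in *SIVA-D160N*) and lower in OVCAR8 (76.4, 62.9 and 65.6 CPM).

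Among the mitochondrial enzymes, *MARS2* was at 19, 24.5 and 26.7 CPM in EV, *SIVA-WT* and *SIVA-D160N* of MDA-MB-231, at 11.4, 11.4 and 17.7 CPM in HCC1954, at 16.3, 17.4 and 17 CPM in OVCAR8, and at 6.91, 7.64 and 10.7 CPM in SKOV3. *SIVA-D160N* was above EV in each line, from 1.04-fold in OVCAR8 to 1.55-fold in HCC1954. The fitted log2 fold change was 0.46 ± 0.13 SE (FDR = 0.206). *EARS2*, the mitochondrial glutamyl enzyme, was at 49.1, 61.3 and 68 CPM in MDA-MB-231, at 40.5, 41.8 and 50.7 CPM in HCC1954, at 51.1, 50.4 and 54 CPM in OVCAR8, and at 39.1, 42.8 and 45.3 CPM in SKOV3. *SIVA-D160N* was the highest library of each line for *EARS2*, with a fitted log2 fold change of 0.27 ± 0.09 SE (FDR = 0.223). The other 14 mitochondrial genes had fitted log2 fold changes of -0.04 (*FARS2* and *PARS2*) to 0.26 (*CARS2*, FDR = 0.354). In SKOV3 all 16 were higher in *SIVA-D160N* than in EV, in MDA-MB-231 12 of 16, in HCC1954 10 of 16 and in OVCAR8 6 of 16. Of all 17211 genes tested, 8558 were lower in SKOV3, 8534 in MDA-MB-231, 8514 in HCC1954 and 9001 in OVCAR8.

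The summed levels show the same contrast between compartments mainly in MDA-MB-231. The 20 cytosolic genes summed to 8312 CPM in EV, 7224 in *SIVA-WT* and 5917 in *SIVA-D160N* of this line, or 0.819%, 0.728% and 0.597% of its counts. The 16 mitochondrial genes summed to 692, 742 and 789 CPM there, so that the ratio of the sums went from 12 to 9.74 and 7.5. In SKOV3 the cytosolic sum was level (3314, 3300 and 3356 CPM) and the mitochondrial sum was 602, 662 and 709 CPM, with ratios of 5.51, 4.99 and 4.73. HCC1954 (ratios of 5.49, 5.77 and 5.08) and OVCAR8 (5.86, 5.68 and 5.45) had their lowest ratio in *SIVA-D160N* too. These ratios compare counts and not molecules, since transcripts differ in length. Of 17 pairs of a cytosolic and a mitochondrial gene for the same amino acid (*EPRS* paired with *EARS2* and *PARS2*, and both FARS subunits with *FARS2*), the ratio was lower in *SIVA-D160N* than in EV in 13 pairs for both MDA-MB-231 and OVCAR8, in 11 for SKOV3 and in 10 for HCC1954. The median change of the log2 ratio was -0.53 in MDA-MB-231 and -0.18 in SKOV3, but -0.06 in OVCAR8 and -0.04 in HCC1954. Between *SIVA-WT* and EV the ratio was lower in *SIVA-WT* in 15 pairs for MDA-MB-231, 13 for SKOV3, 8 for OVCAR8 and 4 for HCC1954. In MDA-MB-231 and SKOV3 more pairs were thus lower than with *SIVA-D160N*. The median change was smaller there, at -0.32 and -0.14, and it was 0.00 in OVCAR8 and 0.12 in HCC1954. The *SIVA-D160N* ratio was lower than that of EV in all 4 lines for the alanine, cysteine, isoleucine, methionine, serine, threonine and tyrosine pairs. *MARS* over *MARS2* went from 30.4 to 14.2 in MDA-MB-231, from 15.3 to 9.27 in HCC1954, from 23.1 to 19.3 in OVCAR8 and from 27.8 to 17 in SKOV3. *CARS* over *CARS2* went from 1.35 to 0.636 in SKOV3, the only pair and line in which the mitochondrial gene had more counts than the cytosolic one.

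**Figure D4:**
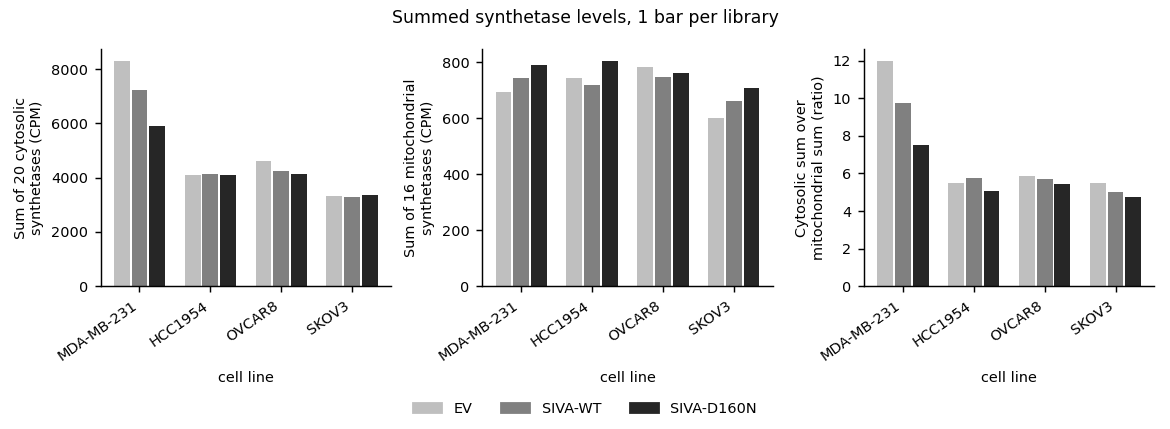
Sums of the 20 cytosolic and 16 mitochondrial synthetase genes in CPM and the ratio of the sums, 1 bar per library, shaded by condition, with bars starting at 0. The cytosolic sum of MDA-MB-231 steps down from 8312 to 5917 CPM, and the ratio is lowest in *SIVA-D160N* in each line.

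Within single lines, where no replicate check exists, members past 1.5-fold were few. In MDA-MB-231, 6 of 39 were at least 1.5-fold lower in *SIVA-D160N* than in EV (background 11.8%): *AARS*, *CARS*, *GARS*, *MARS*, *SARS* and *WARS*. None was that much higher (background 8.72%). In HCC1954 none was that much lower (background 13.1%) and *MARS2* was higher (background 11.1%), and in OVCAR8 none was past it in either direction (backgrounds 5.14% lower and 7.93% higher). In SKOV3 *CARS* was lower (background 14.3%) and *VARS*, *MARS2*, *SARS2* and *AIMP2* were higher (background 7.04%). *WARS*, the tryptophanyl-tRNA synthetase, which interferon induces, had the largest ratio of any member in a line. *WARS* was at 434, 284 and 190 CPM in EV, *SIVA-WT* and *SIVA-D160N* of MDA-MB-231, at 152, 156 and 123 CPM in HCC1954, at 115, 107 and 108 CPM in OVCAR8, and at 102, 121 and 121 CPM in SKOV3. It was thus lower in 3 lines and higher in SKOV3, with a fitted log2 fold change of -0.34 ± 0.18 SE (FDR = 0.429) that was -0.05 without MDA-MB-231. Its mitochondrial counterpart *WARS2* had 0.10 ± 0.09 SE. In a test of the difference between ovarian and breast lines, no member passed an FDR under 0.05 (background 0.00581%), and *WARS* was the only member at an unadjusted p-value under 0.05 (FDR = 0.964), with a difference of 0.84 ± 0.29 SE.

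The comparison of *SIVA-WT* with EV addresses what the added normal protein changes, again together with transfection, vector and selection. No member passed an FDR under 0.05 (background 0%), and at an unadjusted p-value under 0.05 no member was lower (background 1.07%) or higher (background 1.47%), nor with DESeq2 or limma-voom. Without HCC1954 *CARS* was lower at that p-value (background 1.26%). Log2 fold changes ran from -0.22 (*EEF1E1*) to 0.15 (*MARS2*), with medians of -0.07 over cytosolic and 0.03 over mitochondrial genes. *GARS* and *SARS*, 2 of 39 members, were lower in all 4 lines, at -0.12 ± 0.11 and -0.20 ± 0.13 SE, a share near that of all genes tested (background 4.77%), and 0 members were higher in all 4 (background 4.57%). In MDA-MB-231, 13 of 20 cytosolic genes were highest in EV, lower in *SIVA-WT* and lowest in *SIVA-D160N*, and 9 of 16 mitochondrial genes stood in the reverse order. The other lines showed the first order in 3 (HCC1954), 10 (OVCAR8) and 7 (SKOV3) of the 20. How many of all genes tested stood in either order was not counted, so these counts have no background.

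In *SIVA-D160N* compared with *SIVA-WT*, whose vectors differ by the D160N change, no member passed an FDR under 0.05 (background 0%). *AARS* and *CARS* were lower at an unadjusted p-value under 0.05 (background 4.3%), with log2 fold changes of -0.33 ± 0.10 SE (FDR = 0.719) and -0.33 ± 0.12 SE (FDR = 0.719). Both were lower in 4 of 4 lines. *FARSB* (0.27 ± 0.11 SE, FDR = 0.719), *RARS* (0.24 ± 0.10 SE, FDR = 0.719) and *MARS2* (0.30 ± 0.13 SE, FDR = 0.725) were higher (background 2.58%), *FARSB* and *RARS* in 4 of 4 lines and *MARS2* in 3. These genes were picked by a p-value over the same lines, so their agreement between lines is no separate support. Of all 39 members, 7 were lower in all 4 lines (background 10.7%) and 10 were higher in all 4 (background 12.1%). Without HCC1954 the log2 fold changes of *FARSB* and *MARS2* were 0.17 and 0.19. With 1 line left out, *AARS* stayed lower at that p-value in each of the 4 fits and *CARS* in 2 (not without MDA-MB-231 or SKOV3), and the higher members numbered 0 without HCC1954, 1 without MDA-MB-231 (*FARSB*), 1 without SKOV3 (*AIMP2*) and 5 without OVCAR8. By DESeq2 and limma-voom 0 members passed the FDR in this contrast too. *FARSB* was at 60.4 CPM in *SIVA-WT* and 89.5 in *SIVA-D160N* of HCC1954, with EV at 74.8 CPM between them, and at 125 and 130 CPM in MDA-MB-231. *RARS* was at 167 and 219 CPM in MDA-MB-231, 116 and 133 in HCC1954, 152 and 164 in OVCAR8, and 95.2 and 114 CPM in SKOV3. This contrast and that of *SIVA-D160N* with EV share the *SIVA-D160N* libraries.

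The 7 cytosolic genes with the letters TGATGNAA or TTNCATCA in a promoter window (*AARS*, *CARS*, *GARS*, *IARS*, *MARS*, *NARS* and *TARS*, shown above) had fitted log2 fold changes of -0.51 to -0.05 in *SIVA-D160N* vs EV, with a median of -0.25, and 4 of the 7 were lower at an unadjusted p-value under 0.05 (background 7.68%). The 9 cytosolic genes without them (*EPRS*, *FARSA*, *FARSB*, *HARS*, *KARS*, *QARS*, *RARS*, *SARS* and *WARS*) ran from -0.40 to 0.20, with a median of 0.04, and *SARS* alone was lower. In MDA-MB-231 all 7 with a match were lower, with log2 ratios of -0.88 to -0.45, whereas the 9 without ranged from -1.19 (*WARS*) to 0.56 (*FARSA*) and 5 were lower. In HCC1954 and OVCAR8 both sets overlapped over most of their range, with medians of -0.09 and 0.10 in HCC1954 and -0.21 and -0.13 in OVCAR8. In SKOV3 the genes with a match ran from -0.72 to 0.14, with a median of -0.11 and 5 of 7 lower. Those without ran from -0.12 to 0.45 in SKOV3, with a median of 0.24 and 1 of 9 lower. *YARS2*, the mitochondrial gene with a match, was at 0.18 ± 0.09 SE. The motif and the genes were chosen with the results known, and these are descriptions with no test.

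**Figure D5:**
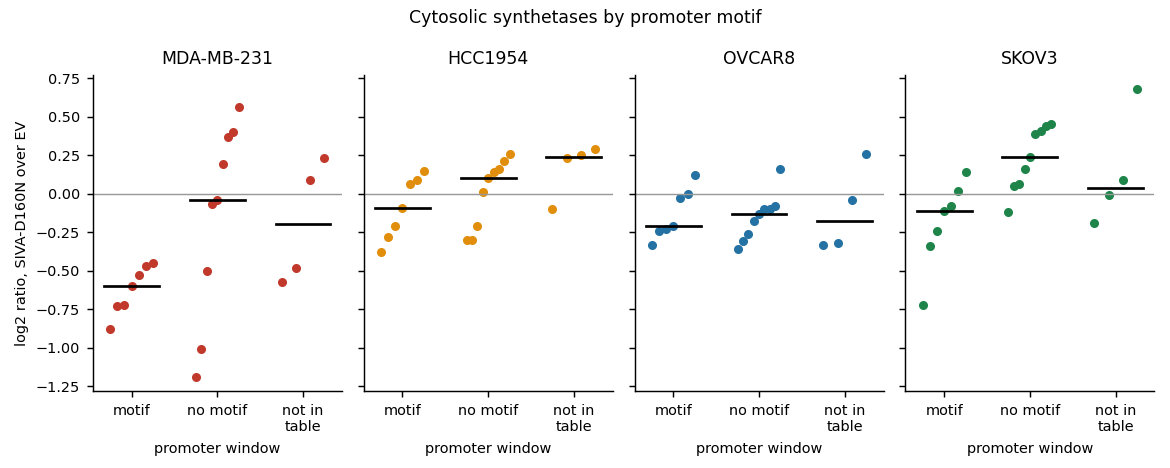
Log2 ratio of *SIVA-D160N* over EV for the 20 cytosolic synthetase genes in each line, split by whether a promoter window holds the motif (7 genes), does not (9 genes) or was not in the promoter table (4 genes), with a black bar at the median. In MDA-MB-231 all 7 genes with the motif lie at -0.45 or below, and the sets overlap in every line.

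Other genes of the pathway were counted from lists in the same fit of *SIVA-D160N* vs EV. These lists were chosen with earlier results of these data known, so the counts are descriptions and no test. Of 27 amino acid response genes (*ATF4*, its targets and amino acid transporters), 16 were lower at an unadjusted p-value under 0.05 (background 7.68%) and 1, *EIF2AK4*, was higher (background 6.52%; 0.19 ± 0.08 SE, FDR = 0.325), with a list median of -0.54. *ATF4* itself was at -0.38 ± 0.09 SE (FDR = 0.154) and lower in 4 of 4 lines, and *ASNS*, the asparagine synthetase, at -1.02 ± 0.22 SE (FDR = 0.148). *ASNS* was at 697, 478 and 198 CPM in EV, *SIVA-WT* and *SIVA-D160N* of MDA-MB-231, at 73.6, 80 and 35.9 CPM in HCC1954, at 79.2, 75.1 and 69.2 CPM in OVCAR8, and at 45.3, 26.9 and 21.3 CPM in SKOV3. By line, the list median was -0.14 for OVCAR8, -0.33 for HCC1954, -0.40 for SKOV3 and -1.17 for MDA-MB-231, beside cytosolic synthetase medians of -0.15, 0.08, 0.06 and -0.47. Of 9 tested elongation factors 1 was higher, *GFM1*, the mitochondrial elongation factor G (0.31 ± 0.10 SE, FDR = 0.215), and none lower. *XPOT*, which exports tRNA from the nucleus, was at -0.13 ± 0.14 SE over the lines and at -0.78 in MDA-MB-231. The mitochondrial elongation factor *TUFM* was at 0.05 ± 0.12 SE.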

How the data were processed

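Libraries were made with a stranded mRNA kit. The authors mapped the reads with STAR (version 2.5.3a in the submitters' processing notes; GRCh38) and deposited its gene counts, not normalized, for 57187 genes. The annotation release is not given in the sources used here. They also deposited scaled CPM values, which were not used. The names of the count columns gave their libraries, with 0 columns unmatched.

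A quasi-likelihood model was fitted by edgeR 4.0.16 under R 4.3.3 (TMM, filterByExpr by condition, 17211 genes) with terms for cell line and condition over all 12 libraries. Adding the study's limit of 1.5 on the log2 fold change was an alternative. The tissue difference was an interaction in that model. Log2 ratios within a line used a prior count of 2. The line was the replicate block: libraries of a line deviated together from the means of their conditions (r = 0.929 to 0.968), those of other lines and conditions did not (-0.433 to -0.191). Identical counts were found in 0 of 66 library pairs. In simulated data with 200 genes changed equally in every line, the fit recovered 93% at a log2 fold change of 1 and 100% at 2. It also called 4 unchanged genes. Smaller changes and changes that differ between lines, like those of the members, were not simulated. The limit given for a count of 0 covers counting error only, and SE values come from the fit over the lines.

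Alternatives were DESeq2 1.42.0, limma-voom (3.58.1), other normalizations (RLE and upper quartile), all genes with at least 1 count, each line left out, no block and a prior count of 0.5. Gene coordinates and promoters come from RefSeq (GRCh38.p14, 39 of 39 genes and 33 of 39 promoters matched by symbol), and lengths from the MANE Select transcripts. The genes, lists and motif were chosen with earlier results of these data known. Genes named with full statistics are those with an unadjusted p-value under 0.05, those of widest range between lines, the highest and lowest per length, and *WARS* and *WARS2*. Other genes were named with their values in view. Counts over a list of further tRNA charging genes are not reported here. Plots were made in matplotlib 3.10.9 (Python 3.11.15).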

Additional observations from a re-analysis of the deposited data

Results flagged for a closer look

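For 3 values, 1 line stood apart from the other 3 with a gap that took up more of the whole range than Dixon's criterion for 4 values allows. The log2 ratio of *SIVA-D160N* over EV in MDA-MB-231 was -0.73 for *AARS*, with -0.28 to -0.34 in the other lines, and -1.01 for *SARS*, with -0.12 to -0.26 in the others. The median log2 ratio of the cytosolic synthetases in *SIVA-D160N* over *SIVA-WT* was -0.26 in MDA-MB-231, beside -0.03 in HCC1954 and 0.00 in both ovarian lines. In all, 19 sets of 4 ratios were checked, of which about 0.95 would pass by chance. The sets share libraries, and *AARS* and *SARS* are among the genes of the cytosolic median. The 3 that passed, all for MDA-MB-231, are therefore not separate results, and their number is no test.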

How the results depend on the processing

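All 130 alternative values kept their direction, though not their size, for the log2 fold changes of members with an unadjusted p-value under 0.05. Having been picked by that p-value, these members' kept direction is no separate support. Some other members turned in *SIVA-D160N* vs EV. Without MDA-MB-231, *EPRS* went from -0.02 to 0.14, *LARS* from -0.07 to 0.10 and *NARS* from -0.06 to 0.10. Without MDA-MB-231 the log2 fold change of *SARS* in *SIVA-D160N* vs EV went from -0.40 to -0.19 and that of *MARS* from -0.25 to -0.13, and without HCC1954 those of *FARSB* and *MARS2* in *SIVA-D160N* vs *SIVA-WT* from 0.27 to 0.17 and from 0.30 to 0.19. In *SIVA-D160N* vs EV, *AARS* and *CARS* (2 members) passed an FDR under 0.05 with DESeq2 (0.013 and 0.0153) and when genes were kept from 1 count upward (0.0204 and 0.00788), in place of 0. Over all alternatives the FDR of *AARS* ran from 0.013 to 1 and that of *CARS* from 0.00788 to 1. With no replicate block, 0 members were lower or higher at an unadjusted p-value under 0.05, in both *SIVA-D160N* vs EV and *SIVA-D160N* vs *SIVA-WT*. With 1 line left out, the count of lower members in *SIVA-D160N* vs EV ran from 3 (without MDA-MB-231) to 8 (without SKOV3) and that of higher members from 1 (without MDA-MB-231) to 9 (without OVCAR8). For *SIVA-WT* vs EV the lower members numbered 0 to 1, and for *SIVA-D160N* vs *SIVA-WT* 1 to 3, with 0 to 5 higher. In the latter contrast 5 were lower with upper quartile normalization and 4 with genes kept from 1 count upward. Leaving out MDA-MB-231 turned 3 medians: the cytosolic one to 0.03 in *SIVA-D160N* vs EV (range over the lines left out -0.12 to 0.03) and to 0.04 in *SIVA-D160N* vs *SIVA-WT* (range -0.08 to 0.04), and the mitochondrial one to -0.01 in *SIVA-WT* vs EV (range -0.01 to 0.07). Without SKOV3 the mitochondrial median in *SIVA-D160N* vs EV went from 0.14 to 0.06. The cause was not tested.

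With 4 lines and 1 library for each condition, a line and its culture cannot be told apart. The gene counts of *SARS2*, *VARS2* and *EEF1E1* depend on how reads shared with overlapping genes were counted.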

Other observations

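Lists of genes outside tRNA charging, also chosen with earlier results known, were counted in the same fit of *SIVA-D160N* vs EV. Of 22 tested interferon response genes (a list without *WARS*), 7 were lower at an unadjusted p-value under 0.05 (background 7.68%) and 0 higher (background 6.52%). The median log2 fold change of these genes was -0.38. Their median was -0.88 in HCC1954 and -0.58 in SKOV3, beside -0.14 in MDA-MB-231 and -0.04 in OVCAR8, whereas the log2 ratio of *WARS* was -0.30, 0.24, -1.19 and -0.08 in these lines. *OAS2*, a sensor of double-stranded RNA, was at -2.19 ± 0.42 SE (FDR = 0.13). Of 22 proliferation genes, 11 were higher (background 6.52%) and 0 lower (background 7.68%), with a median of 0.24. All 22 were above 0 in the fit (8311 of 17211 genes tested were), from 0.07 to 0.49. *CCNA2*, the cyclin of S and G2 phase, was at 0.34 ± 0.11 SE (FDR = 0.221) and higher in 4 of 4 lines. The proliferation median by line was -0.10 for OVCAR8, 0.27 for HCC1954, 0.28 for SKOV3 and 0.46 for MDA-MB-231, beside medians of -0.05, 0.10, 0.23 and 0.16 over the mitochondrial synthetases. A relation between these lists and the synthetases was not tested.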
